A study of Mus musculus with 47 samples.

Results

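The genes described here are 10 products of the intestinal mucus layer: the secreted proteins Muc2, Fcgbp, Clca1, Zg16, Tff3, Spink4 and Retnlb, the mucin-folding enzyme Agr2, and the membrane mucins Muc13 and Muc3. They were taken as every probe set of a mouse Affymetrix 3' array, of 45101 in all, that the probe annotation assigns to 1 of these gene symbols and to no other. That gave 15 probe sets for the 10 genes. Retnlb had no value on any of the 47 arrays and its level is not known here, so 9 genes were measured, and all 9 passed the filter on low values, among 8218 genes fitted.

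The 47 arrays hold total RNA from intestinal crypts and villi of C57BL/6 mice in 12 groups of 4, except 3 arrays for the villi of the NWD2 diet. A genetic arm compared wild type, Apc1638N/+ and p21-/- mice, aged 3 months and fed Ain76A for that time. A dietary arm compared wild-type mice labelled 1 year old, randomized at weaning to 1 year on Ain76A, NWD1 or NWD2. Ain76A is a purified rodent diet, and NWD1 and NWD2 are purified Western-style diets. Apc1638N is an inherited mutant allele of the tumour suppressor Apc, carried here with 1 wild-type copy, and p21-/- mice lack both copies of Cdkn1a, which encodes a brake on cyclin-dependent kinases. The labels do not say whether the replicates of a group came from separate mice, so each p-value measures only the spread between these arrays.

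Goblet cells are single mucus-secreting cells scattered through the intestinal epithelium, born in the crypts and carried up the villi as they mature. Their main product, Muc2, is a very large gel-forming mucin that is folded and disulphide-linked in the endoplasmic reticulum, heavily O-glycosylated in the Golgi, packed into granules and unfolded after release into the gel that covers the epithelium. Muc13 and Muc3 are different: they are membrane-bound mucins that enterocytes carry on their brush border. In whole crypts and villi, fewer cells of a type and less RNA per cell cannot be told apart, and a level given here is that of the whole preparation.

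The DNA just before the start of the genes is shown for 4 of them, because Muc2 and Fcgbp moved together across the arrays whereas Agr2 and Muc3 each followed another pattern. The windows hold the 250 bases before the RefSeq start (GRCm38.p6), 5′ to 3′ along the gene. Muc2 has chr7:141690090-141690339 (plus strand), Fcgbp chr7:28070986-28071235 (plus), Agr2 chr12:35992675-35992924 (plus) and Muc3 chr5:137166047-137166296 (minus). Capitals mark matches to the motifs searched, on either strand.
Muc2: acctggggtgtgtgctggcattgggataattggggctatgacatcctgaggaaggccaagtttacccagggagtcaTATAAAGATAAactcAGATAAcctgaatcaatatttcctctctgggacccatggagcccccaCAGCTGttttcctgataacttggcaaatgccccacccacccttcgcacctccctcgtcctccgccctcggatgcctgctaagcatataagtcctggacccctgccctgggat
Fcgbp: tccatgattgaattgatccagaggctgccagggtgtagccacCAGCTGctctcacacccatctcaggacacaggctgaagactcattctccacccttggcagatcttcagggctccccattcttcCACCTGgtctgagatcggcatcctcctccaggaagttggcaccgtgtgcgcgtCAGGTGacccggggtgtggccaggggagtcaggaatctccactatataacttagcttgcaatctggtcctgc
Agr2: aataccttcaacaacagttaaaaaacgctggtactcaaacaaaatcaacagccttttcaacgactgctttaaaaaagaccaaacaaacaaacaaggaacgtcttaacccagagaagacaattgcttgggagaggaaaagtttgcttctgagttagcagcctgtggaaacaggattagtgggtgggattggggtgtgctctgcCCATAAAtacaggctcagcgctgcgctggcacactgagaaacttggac
Muc3: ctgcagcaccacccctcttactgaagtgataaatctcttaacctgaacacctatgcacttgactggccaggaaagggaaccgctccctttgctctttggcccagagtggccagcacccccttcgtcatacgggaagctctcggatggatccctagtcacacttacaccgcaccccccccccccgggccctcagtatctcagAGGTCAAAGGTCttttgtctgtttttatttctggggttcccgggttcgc
The E-box CAGNTG occurs once in the Muc2 window, 112 bases before the start, and 3 times in that of Fcgbp, at 208, 125 and 72 bases. It is common, with a match in 44.8% of the 32851 promoter windows of this length. Muc2 also holds AGATAA, the GATA motif, 169 and 159 bases before the start (9.99% of windows). The first of these overlaps the only TATAAA of the set, at 174 bases (12.4% of windows). Agr2 holds 1 caudal motif, TTTATNG, on the minus strand at 48 bases (9.81% of windows). Muc3 holds a direct repeat of the nuclear receptor half-site, AGGTCA followed after 1 base by AGGTC, 49 bases before the start, and 25 windows in all hold this repeat (0.0761%). Both Muc13 windows hold 1 E-box, and no window of the members holds the forkhead motif TGTTTA (12% of windows). The motifs were chosen after the sequences had been read, and a match describes the letters only. RefSeq windows were at hand for 5 of the 10 genes.

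Between 14814 and 23355 probe sets had a value on an array, and levels below are normalized log2 values. The tissue labels were checked first. The mean level of 6 cell cycle genes was higher on every crypt array than on any villus array of the same condition, with group means of 11.43 to 12.40 in crypts and 9.57 to 10.02 in villi. The mean of 16 enterocyte genes was 14.16 ± 0.73 (SD, n = 4) in wild-type crypts against 14.71 ± 0.21 in wild-type villi, and these groups overlapped. In NWD2 crypts it was 14.70 ± 0.54, against 13.22 ± 0.50 in Ain76A crypts. The first mean minus the second is used below as a marker score for how crypt-like an array is. The genotype labels were checked on Cdkn1a, of which 1 probe set (1421679_a_at) was blank on 8 of 8 p21-/- arrays and measured on 39 of 39 others. A second, 1424638_at, was measured on all 8 and all 39, so the label rests on the first. Tests are limma's moderated test with Benjamini-Hochberg adjustment over all genes tested in a comparison, and a gene is called where the adjusted p is under 0.05.

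The secreted proteins Muc2, Fcgbp, Clca1 and Tff3 were lower in crypts than in villi in all 6 conditions, and each of these 24 differences was called. They are named the secreted core below because of this result, so the full count of calls follows from the grouping. Of the other secreted members, Zg16 was not called in p21-/- mice by the probe set that stands for it, and Spink4 ran the other way. Agr2 was called in neither direction. In wild type, 5 of the 9 genes were lower in crypts, where 26.2% of all 7147 genes tested were lower, and 1 was higher, against 22.1%. In Apc1638N/+ mice 7 were lower (22% of all genes) and 1 was higher (22.2%), and in p21-/- mice 6 were lower (24.1%) and 1 was higher (23.8%). On Ain76A 7 were lower (29.4%) and 1 was higher (29.2%), on NWD1 7 were lower (23.2%) and none was higher (24.7%), and on NWD2 6 were lower (6.75%) and none was higher (9.36%). The median of the 9 genes was -0.72 on the log2 scale in wild type, against -0.08 for all genes, and -1.54 against -0.03 on Ain76A.

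**Figure D1:**
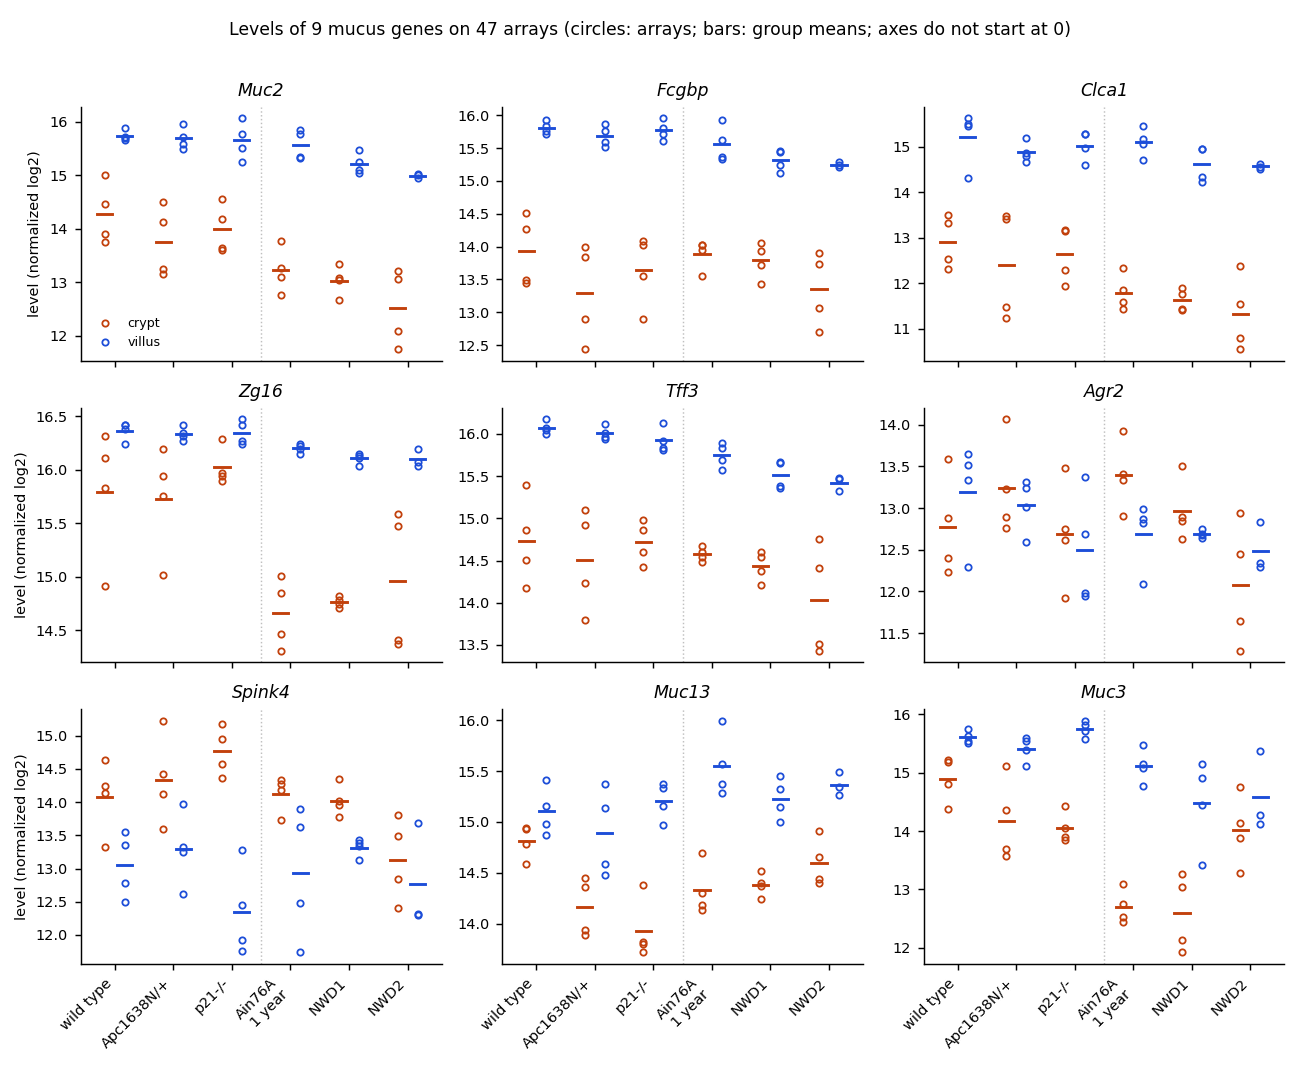
Normalized log2 level of 9 mucus genes on each of the 47 arrays (open circles) by genotype or diet, with bars at the group means, crypts in orange and villi in blue; the vertical axes do not start at 0 and differ between panels. Muc2, Fcgbp, Clca1 and Tff3 have every villus array above every crypt array of the same condition, Spink4 lies mostly the other way, and Agr2 overlaps throughout.

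Muc2, the gel-forming mucin itself, had levels of 13.76, 15.01, 14.46 and 13.91 in the 4 wild-type crypt arrays and of 15.88, 15.66, 15.72 and 15.71 in the wild-type villi. Every villus array was above every crypt array, and the villi spanned a narrower range than the crypts. The difference, crypt minus villus, was -1.46 ± 0.28 (SE), adjusted p = 5.61e-05, a 2.75-fold lower level in crypts. In Apc1638N/+ mice the crypts had 14.50, 13.16, 14.13 and 13.24 and the villi 15.72, 15.58, 15.96 and 15.50, and in p21-/- mice the crypts had 14.55, 14.19, 13.60 and 13.65 and the villi 16.07, 15.51, 15.24 and 15.78. These groups too stood apart by tissue, with differences of -1.93 and -1.65. In the dietary arm the crypts had 13.10, 12.76, 13.77 and 13.27 on Ain76A, 13.04, 12.67, 13.08 and 13.34 on NWD1 and 13.21, 12.10, 11.75 and 13.05 on NWD2. The villi had 15.85, 15.32, 15.34 and 15.78 on Ain76A, 15.09, 15.05, 15.25 and 15.48 on NWD1 and 14.95, 15.02 and 15.01 on NWD2, again all above the crypts. Muc2 was 5.09-fold, 4.55-fold and 5.53-fold lower in crypts on the 3 diets (log2 differences -2.35, -2.19 and -2.47, adjusted p at most 7.68e-07). The change of the gap between Ain76A and the 3-month wild type was not called (-0.89 ± 0.40 SE, adjusted p = 0.13). By group mean, wild-type villi were highest at 15.74 ± 0.10 (SD, n = 4) and NWD2 crypts lowest at 12.53 ± 0.71. All 6 villus groups came before all 6 crypt groups in this order, and none of the villus groups differed from its control by the test.

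Fcgbp, a large mucus protein built of von Willebrand factor type D domains that is bound up with the Muc2 gel, had 13.45, 14.51, 14.27 and 13.50 in wild-type crypts and 15.93, 15.71, 15.76 and 15.84 in wild-type villi. The groups did not overlap, and the difference was -1.88 ± 0.26 (SE), adjusted p = 4.08e-07, 3.68-fold. Over the other conditions it ran from -1.53 on NWD1 to -2.40 in Apc1638N/+ mice, without overlap in any. Clca1, a secreted metalloprotease that trims Muc2, was lower in crypts in every condition, from -2.31 in wild type to -3.31 on Ain76A. It had 12.30, 13.51, 13.32 and 12.52 in wild-type crypts and 15.63, 15.49, 15.45 and 14.31 in wild-type villi, a difference of -2.31 ± 0.39 (SE), adjusted p = 6.43e-06. On Ain76A the crypts had 11.58, 11.44, 12.32 and 11.84 and the villi 15.17, 14.71, 15.06 and 15.46. That is 9.9-fold lower in crypts (log2 -3.31), against 4.96-fold in the genetic arm's wild type. The change of this gap between the Ain76A and wild-type groups was not called (95% interval -2.07 to 0.07, adjusted p = 0.219). A second Clca1 probe set, 1459889_at, was measured on 39 arrays and gave -2.21 ± 0.45 (SE), adjusted p = 0.000171, in wild type.

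Tff3, the trefoil peptide that goblet cells release with mucin and that aids epithelial repair, had 14.17, 15.39, 14.86 and 14.50 in wild-type crypts and 16.07, 15.99, 16.17 and 16.05 in wild-type villi. No crypt array reached a villus array, and the difference was -1.34 ± 0.23 (SE), adjusted p = 8.16e-06, 2.53-fold. Its gap lay between -1.08 on NWD1 and -1.50 in Apc1638N/+ mice. The scaling matters for 1 of these values: on NWD2 the deposited scale, without quantile normalization, gave -0.84 with an adjusted p of 0.0619.

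Zg16, a small lectin-like protein of the mucus that binds bacterial cell walls, is covered by 3 probe sets whose differences were unequal. The probe set that stands for the gene, 1434137_x_at, had 14.92, 16.31, 16.11 and 15.83 in wild-type crypts and 16.38, 16.24, 16.41 and 16.41 in villi. These groups overlapped by 1 crypt array, and the difference of -0.57 ± 0.22 (SE), adjusted p = 0.0337, lost its call when crypt replicate 1 was left out (-0.28, adjusted p = 0.303) and when any 1 of villus replicates 1, 3 and 4 was left out (adjusted p up to 0.066). With 1428358_at the same crypts had 13.33, 14.17, 13.95 and 12.95 and the same villi 16.26, 16.15, 15.87 and 15.43, and nothing overlapped. That probe set gave -2.33 ± 0.29 (SE), adjusted p = 5.88e-08, and 1428359_s_at gave -1.06 ± 0.22, adjusted p = 0.000181. In p21-/- mice the 3 probe sets gave -0.32 (adjusted p = 0.241, not called), -1.12 and -2.37, and on Ain76A they gave -1.54, -1.70 and -3.61. In Apc1638N/+ mice the call of 1434137_x_at was lost without crypt replicate 4 (adjusted p = 0.181) or villus replicate 3 (adjusted p = 0.0537). The deposited scale also lost the Zg16 call in Apc1638N/+ mice (-0.53, adjusted p = 0.177) and on NWD2 (-0.51, adjusted p = 0.316). With only the groups compared in the fit it was lost in wild type (adjusted p = 0.105) and in Apc1638N/+ mice (adjusted p = 0.0877). The order of the 3 probe sets was the same in all 6 conditions. On villus arrays a median of 10 probe sets of the whole array were brighter than 1434137_x_at, against 24 for 1428358_at. The part of such brightness in the unequal differences was not tested.

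**Figure D2:**
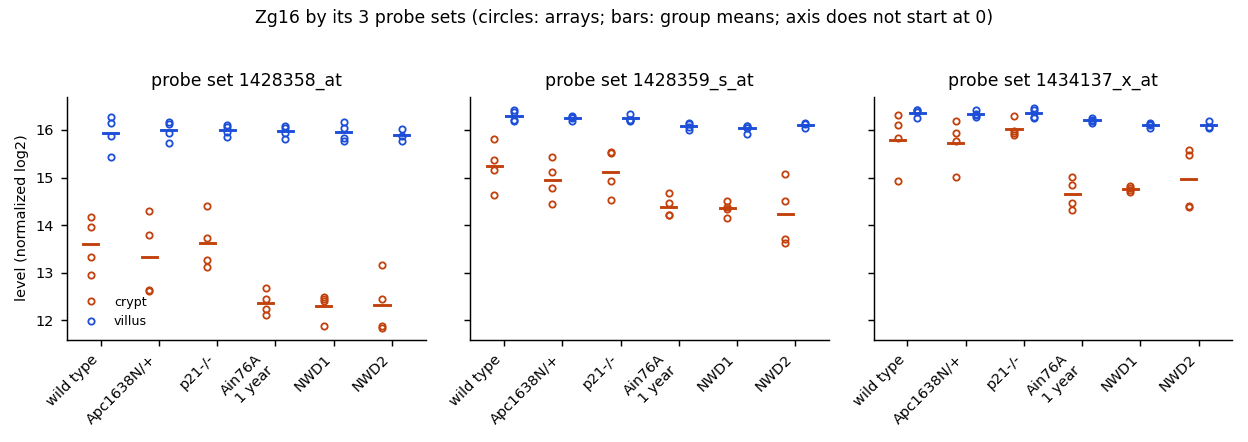
Normalized log2 level of Zg16 by each of its 3 probe sets, on every array (open circles) with group means (bars), crypts in orange and villi in blue; the axis does not start at 0. Villus arrays lie at 15.43 or above in all 3 panels, and crypt arrays lie furthest below the villi for 1428358_at, where the wild-type difference is -2.33, and nearest the villi for 1434137_x_at, where it is -0.57.

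Muc13, a membrane mucin of the brush border, had 14.93, 14.94, 14.79 and 14.59 in wild-type crypts and 15.42, 15.16, 14.87 and 14.98 in villi. The groups overlapped and the difference was not called (-0.29 ± 0.18 SE, adjusted p = 0.184, 95% interval -0.65 to 0.06). In the other 5 conditions it was lower in crypts without overlap. Crypts of p21-/- mice had 13.80, 13.82, 13.72 and 14.38 and their villi 14.97, 15.34, 15.38 and 15.16, a 2.43-fold difference (log2 -1.28 ± 0.18, adjusted p = 5.55e-07). Ain76A crypts had 14.13, 14.18, 14.30 and 14.70 and their villi 15.28, 15.37, 15.57 and 15.99, with a log2 difference of -1.23. The gap was -0.73 in Apc1638N/+ mice, -0.85 on NWD1 and -0.77 on NWD2. The NWD2 call was lost on the deposited scale (-0.38, adjusted p = 0.28) and the Apc1638N/+ call with only these groups in the fit (adjusted p = 0.0518). Its second probe set, 1419386_at, gave 0.01 in wild type, -0.995 (adjusted p = 0.00632) in p21-/- and -0.53 (adjusted p = 0.15, not called) in Apc1638N/+ mice.

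Muc3, the other brush border mucin, had 14.38, 15.18, 14.80 and 15.21 in wild-type crypts and 15.51, 15.76, 15.54 and 15.64 in villi. The groups did not overlap, yet the difference missed the threshold (-0.72 ± 0.32 SE, adjusted p = 0.0615). It passed with the deposited scaling (-0.83, adjusted p = 0.0254), with only these groups in the fit (adjusted p = 0.0203) and without crypt replicate 4 (adjusted p = 0.0486). Ain76A crypts had 13.10, 12.75, 12.53 and 12.44 against 15.48, 15.16, 14.77 and 15.08 in their villi, a 5.34-fold difference (log2 -2.42, adjusted p = 4.66e-08). NWD1 crypts had 13.27, 11.93, 13.04 and 12.13 against 14.44, 13.42, 14.90 and 15.14. NWD2 crypts, with 13.29, 14.13, 14.76 and 13.89, overlapped their villi, with 14.28, 14.12 and 15.37. The NWD1 difference of -1.89 was called and the NWD2 difference of -0.58 (adjusted p = 0.262) was not. In Apc1638N/+ and p21-/- mice the differences were -1.23 and -1.69, both called and without overlap.

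Agr2, the protein disulphide isomerase of the endoplasmic reticulum that Muc2 needs for folding, did not share the tissue gap of its client. It had 13.59, 12.40, 12.88 and 12.23 in wild-type crypts and 13.52, 13.34, 13.64 and 12.29 in villi, and the groups overlapped here and in every other condition. The differences ran from -0.42 in wild type (95% interval -1.11 to 0.26) to 0.70 on Ain76A (0.01 to 1.38, adjusted p = 0.0845), and none was called. The Ain76A difference was called with only these groups in the fit (adjusted p = 0.0195). The second probe set, 1455802_x_at, was called in none of the 6 conditions either.

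Spink4, a secreted Kazal-type protease inhibitor of goblet cells, was the only member called higher in crypts, in 4 of 6 conditions. It had 14.13, 14.64, 14.24 and 13.32 in wild-type crypts and 13.55, 12.79, 13.36 and 12.50 in villi, a difference of 1.03 ± 0.39 (SE), adjusted p = 0.0251, with overlap by crypt replicate 4. That call was lost without crypt replicate 2 or 3 or villus replicate 2 or 4, one at a time (0.85 to 0.98, adjusted p up to 0.0884). In Apc1638N/+ mice it was 1.05 (adjusted p = 0.0251), lost without crypt replicate 1 (0.75, adjusted p = 0.136) or villus replicate 3 (0.82, adjusted p = 0.102). The clearest difference was in p21-/- mice. Their crypts had 14.95, 15.18, 14.58 and 14.37 and their villi 12.45, 11.92, 13.27 and 11.76, apart by 5.35-fold (log2 2.42 ± 0.39 SE, adjusted p = 3.33e-06). On Ain76A it was 1.19, lost without villus replicate 2 (0.79, adjusted p = 0.0802). On NWD1, with 13.96, 14.02, 13.77 and 14.34 in crypts and 13.38, 13.42, 13.34 and 13.13 in villi, the groups did not overlap and the difference of 0.71 was not called (adjusted p = 0.127), though it was with only these groups in the fit (adjusted p = 0.000991). On NWD2 it was 0.37. Paneth cell markers moved with the tissue in the same sense. The mean of Lyz1 and Defa39, the 2 of 11 listed Paneth genes measured on every array, was 15.18 to 16.13 by group in crypts and 11.26 to 14.42 in villi, and their part in the Spink4 difference was not tested.

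**Figure D3:**
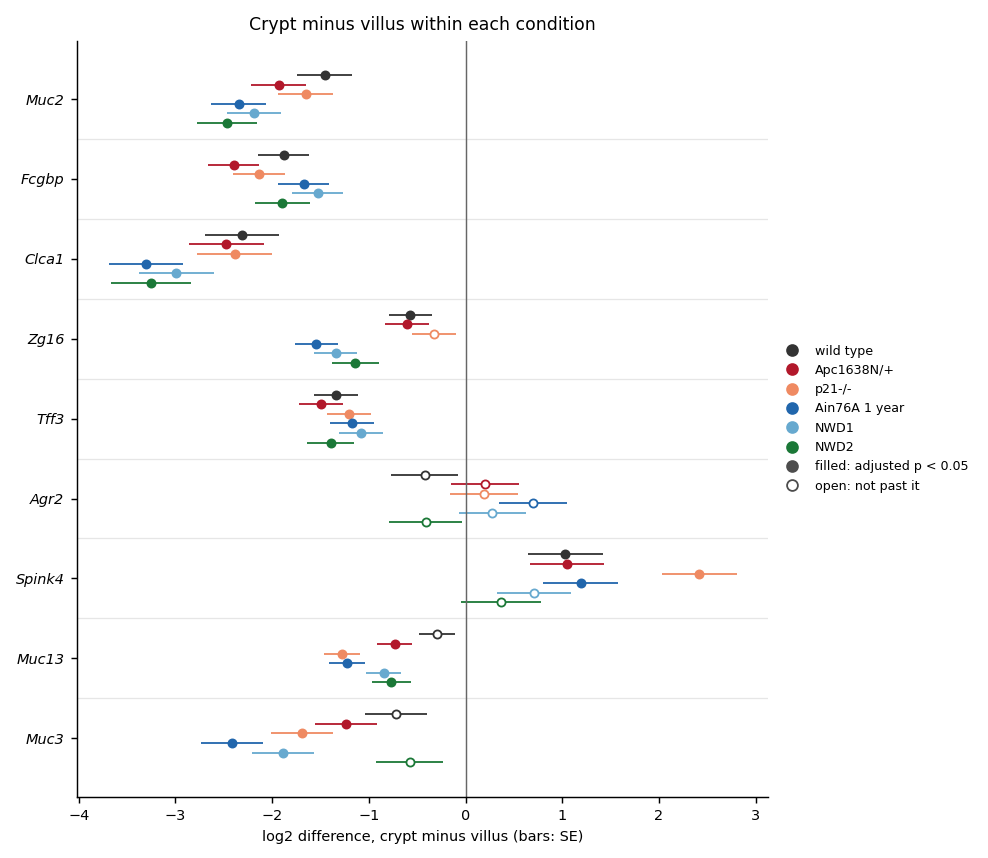
Log2 difference, crypt minus villus, of 9 mucus genes in each of 6 conditions, with standard errors from the limma fit as bars; filled points have an adjusted p under 0.05 and open points do not. All points of Muc2, Fcgbp, Clca1 and Tff3 are filled and left of 0, Spink4 lies right of 0 and reaches 2.42 in p21-/- mice, and Muc3 spreads from -2.42 on Ain76A to -0.58 on NWD2.

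Whether a gap differed between conditions was tested directly. Between p21-/- and wild type, 1 of 9 genes had a more negative crypt minus villus difference in p21-/- mice (0.613% of all genes) and none a more positive one (0.721%). The 1 was Muc13 (-0.99 ± 0.26 SE, adjusted p = 0.0444). That call was lost in 11 of the 16 fits that left out 1 array (adjusted p up to 0.109) and with the deposited scaling (adjusted p = 0.0573). Spink4 had 1.39 (adjusted p = 0.17), so its wider gap in p21-/- mice was not called. Between Ain76A at 1 year and wild type at 3 months, 3 of 9 genes had a more negative difference on Ain76A (5.85% of all genes) and none a more positive one (6.31%). They were Muc3 (-1.70, adjusted p = 0.0139), Zg16 (-0.97, 0.0388) and Muc13 (-0.93, 0.0173). On the deposited scale Zg16 had 0.20 (adjusted p = 0.791) and Muc13 -0.81 (0.0691), and by its probe set 1428359_s_at Zg16 had -0.64 (0.184). Wild-type crypt replicates 2 and 4, which lie nearest the villi on the marker score, were chosen after seeing the data and left out together. None of the 3 was then called, with -1.40 (0.112) for Muc3, -0.70 (0.241) for Zg16 and -0.98 (0.0553) for Muc13. That fit had fewer arrays, and its share of all genes called is not given here. Without villus Ain76A replicate 4 only Muc3 was called, and the Zg16 call was lost in 12 of 16 such fits. Between NWD2 and Ain76A, none of 9 was called (0.689% of all genes), where 1583 genes had an unadjusted p under 0.05. Muc3 came nearest, with 1.84 ± 0.47 (SE), adjusted p = 0.0505, and with the replicate number as a block it was called (1.89, adjusted p = 0.0424). No gene of the array was called in the same test of Apc1638N/+ against wild type or of NWD1 against Ain76A (0% of all genes), with 394 and 206 genes at an unadjusted p under 0.05.

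Other genes of mucus production were read from lists of goblet transcription factors, O-glycosylation enzymes, folding factors, granule and ion transport proteins, further goblet genes and relatives of the members. Their counts in wild type stand beside 22.1% of all genes higher and 26.2% lower in crypts. Of 10 goblet transcription factors, 7 could be tested in wild type and 3 were lower in crypts (Atoh1, Klf4 and Foxa3) and 0 higher, with a list median of -0.32 against -0.08 for all genes. Atoh1, the switch to the secretory lineage, had -1.92 ± 0.26 (SE) in wild type and was lower in crypts in 5 of 6 conditions. In p21-/- mice it had -0.35 (adjusted p = 0.283). Klf4, a zinc finger factor of goblet cell maturation, was lower in crypts in all 6, from -1.31 in p21-/- mice to -2.42 on Ain76A. Spdef, which drives goblet cell maturation, was measured on 32 arrays and had -0.82 ± 0.36 (adjusted p = 0.0529) on Ain76A. Foxa3 had -1.05 ± 0.39 in wild type. Gfi1 was measured on 34 arrays and did not enter the fit.

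Folding factors of the endoplasmic reticulum leaned to the crypt side, opposite to Muc2. In wild type 9 of 14 tested were higher in crypts and 1 was lower, with a list median of 0.94. The largest were Hsp90b1 (1.72 ± 0.22), Canx (1.64 ± 0.26), Hspa5 (1.63 ± 0.28) and Creld2 (1.37 ± 0.25), which are chaperones and helpers of secretory proteins in general. On Ain76A 12 of 15 were higher and none was lower, led by Pdia6 at 2.25 ± 0.29. On NWD2 none of 14 was called, with a list median of 0.34. Ern2, the stress sensor of mucus-secreting cells, was not called in the 5 conditions in which it could be tested, and had -0.44 ± 0.45 in wild type. The cell cycle genes were higher in crypts in the same comparisons, 9 of 10 tested in wild type, and their part in the folding result was not tested.

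Of 15 O-glycosylation genes tested in wild type, 6 were lower in crypts (26.2% of all genes) and 2 were higher (22.1%), with a list median of -0.63 against -0.08 for all genes. The sialyltransferases St3gal1 (-2.51 ± 0.53) and St3gal4 (-1.25 ± 0.29) and the sulphotransferase Chst4 (-1.93 ± 0.40) were lower, while Galnt4, which adds the first sugar (0.87 ± 0.28), and C1galt1c1, the chaperone of the core 1 enzyme (0.86 ± 0.26), were higher. St3gal4 was lower in 5 of 6 conditions, with NWD2 the exception. Among granule and ion transport genes 4 were higher (22.1% of all genes) and 6 lower (26.2%) of 15 in wild type. The chloride carriers Slc12a2 (3.83 ± 0.42) and Cftr (2.81 ± 0.37) were higher in crypts, and the granule docking factors Rab27a (-2.41 ± 0.35) and Sytl2 (-2.35 ± 0.36) were lower. Of 11 further goblet genes 5 were lower and 2 were higher. Fer1l6 (-3.16 ± 0.33), Hepacam2 (-2.18 ± 0.31) and Capn9 (-1.63 ± 0.31) were lower and Ccl9 (1.54 ± 0.45) was higher. Markers of other cells moved with the tissue too in wild type. Of 9 lymphocyte genes tested 9 were lower in crypts, with a list median of -3.15. Of 8 enteroendocrine genes 7 were lower and 1 was higher, with a median of -2.61. On the diets the mean of 4 enteroendocrine genes was instead higher in crypts. It was 12.91 against 11.97 in villi on Ain76A, 12.42 against 11.67 on NWD1 and 12.22 against 11.50 on NWD2. The mean of 3 lymphocyte genes was 10.23 in crypts and 11.30 in villi on Ain76A, 10.51 and 10.55 on NWD1 and 9.99 and 10.09 on NWD2. The part of these cells in the differences of these lists was not tested.

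Relatives of Clca1 split by tissue. Clca4a had -5.63 ± 0.64 and Clca4b -0.94 ± 0.29 in wild type, both lower in crypts, while Clca3a1 had 1.52 ± 0.34. Clca3b was tested in 4 conditions and was higher in crypts in each, by up to 3.42 ± 0.57 on Ain76A. These genes are close copies of each other, and probe sets may share transcripts. Of the other mucins only Muc4, a membrane mucin, could be tested, and it was called in no condition (0.86 ± 0.41, adjusted p = 0.0767, in wild type). Muc1 had no value on any array and the trefoil peptide Tff2 had a value on 1.

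Few of these genes were called between the genotypes. In crypts of p21-/- mice 1 of 9 was lower than in wild type (1.69% of all genes) and none was higher (2.56%). The 1 was Muc13, with 13.80, 13.82, 13.72 and 14.38 against 14.93, 14.94, 14.79 and 14.59 in wild-type crypts. The groups did not overlap, although p21-/- replicate 4 lay well above the other 3, and the difference was -0.88 ± 0.18 (SE), adjusted p = 0.00638, 1.84-fold. Each fit that left out 1 of the 8 arrays kept this call. It was lost with only these groups in the fit (adjusted p = 0.0991) and with the other probe set (-0.86, adjusted p = 0.0879). The call also went once each array's spike-in level, the mean of 9 control probe sets, entered the fit (-0.58, adjusted p = 0.18). The p21-/- crypt arrays had fewer measured probe sets, 14814 to 17373 against 19091 to 22078 in wild type. Their spike-in means lay mostly higher, at 13.47 to 14.68 against 12.20 to 13.73 (exact permutation test, two-sided, p = 0.0571). The part of these array measures in the Muc13 difference was not tested beyond that fit.

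Muc3 was also on the low side in p21-/- crypts, with 14.06, 13.86, 13.90 and 14.43 against 14.38, 15.18, 14.80 and 15.21, overlapping by 1 array (-0.83 ± 0.32 SE, adjusted p = 0.129). Spink4 was on the high side (0.69 ± 0.39 SE, adjusted p = 0.328) and overlapped too. The secreted core gave -0.29 for Muc2, -0.29 for Fcgbp, -0.28 for Clca1 and -0.01 for Tff3. Zg16 had 0.23 by 1434137_x_at, 0.03 by 1428358_at and -0.12 by 1428359_s_at, none of them called. For Muc2 the 95% interval was -0.84 to 0.27. Atoh1 was higher in these crypts, 8.16 ± 0.23 (SD, n = 4) in wild type and 9.32 ± 0.30 in p21-/-, by 1.16 ± 0.26 (SE), adjusted p = 0.0102, which became 0.59 (adjusted p = 0.328) with the spike-in covariate. With only these groups in the fit its adjusted p was 0.137. Of the lists, Ccl6 (1.16 ± 0.34) and the granule GTPase Rab3d (0.94 ± 0.28) were higher, and Clca4b (-1.32 ± 0.29), Mep1b (-0.91 ± 0.28), Calr (-0.76 ± 0.18) and the glycosyltransferase B4galnt2 (-0.63 ± 0.18) were lower. The 2 Paneth genes had 16.01 to 16.25 in these crypts against 14.84 to 15.91 in wild type. Of 9 listed myeloid markers only 2, Csf1r and Lyz2, were measured on every array. Of the myeloid markers 1 of 2 tested was higher. The mean of Csf1r and Lyz2 was 10.77 to 11.66 against 9.05 to 10.46 (exact permutation test, two-sided, p = 0.0286, 0.0774 adjusted over 176 such tests). Of 4 lymphocyte genes tested 3 were lower, with a list median of -1.73. The part of these cells in the list genes was not tested.

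In Apc1638N/+ crypts none of 9 genes was called against wild type (0.0412% of all genes), where 918 genes had an unadjusted p under 0.05. Muc13 had 13.89, 13.94, 14.45 and 14.36 and lay below all wild-type crypts (-0.65 ± 0.18 SE, adjusted p = 0.129), and Fcgbp had -0.64 (adjusted p = 0.299). Without Apc1638N/+ crypt replicate 3 both were called (Muc13 -0.75, adjusted p = 0.0142, and Fcgbp -0.88, adjusted p = 0.0372). The Apc1638N/+ crypt arrays were uneven for the secreted core. Replicates 1 and 3 had 14.50 and 14.13 for Muc2 and 13.48 and 13.42 for Clca1, and replicates 2 and 4 had 13.16 and 13.24 for Muc2 and 11.23 and 11.48 for Clca1. In villi none of 9 was called in Apc1638N/+ (0.0275% of all genes) or in p21-/- mice (0.0413%) by limma, with 350 and 796 genes at an unadjusted p under 0.05. The differences of Muc2 were -0.05 (95% interval -0.60 to 0.50) and -0.09 (-0.64 to 0.46). Both genotypes were set against the same wild-type arrays.

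**Figure D4:**
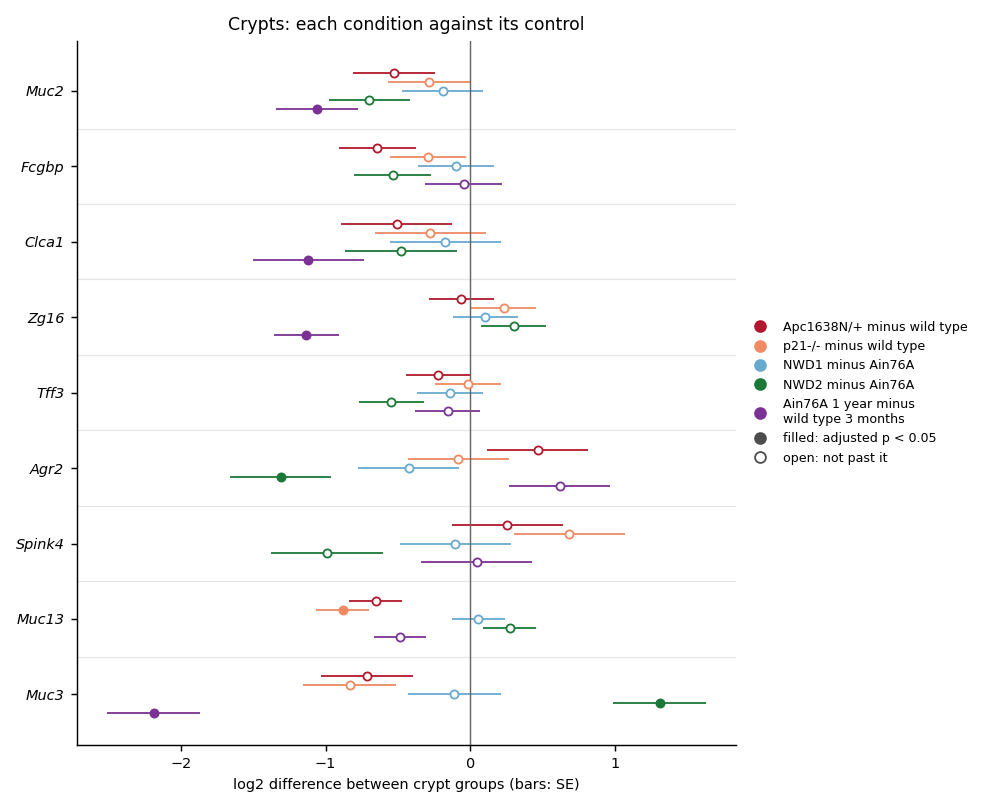
Log2 difference between each crypt group and its control for 9 mucus genes, with standard errors from the limma fit as bars; filled points have an adjusted p under 0.05. Muc13 is filled for p21-/- (-0.88), Agr2 (-1.31) and Muc3 (1.31) for NWD2, and Muc2, Clca1, Zg16 and Muc3 for the 1 year against 3 months comparison, where Muc3 is at -2.19.

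Between NWD2 and Ain76A crypts 2 of the 9 genes were called, in opposite directions: 1 lower on NWD2 (4.17% of all genes) and 1 higher (6.38%). Agr2 had 12.94, 11.64, 11.29 and 12.45 on NWD2 and 12.90, 13.33, 13.93 and 13.41 on Ain76A, overlapping by NWD2 replicate 1, with a difference of -1.31 ± 0.35 (SE), adjusted p = 0.0124, 2.48-fold lower. The second Agr2 probe set gave -0.70 (adjusted p = 0.424). Muc3 had 13.29, 14.13, 14.76 and 13.89 on NWD2 and 13.10, 12.75, 12.53 and 12.44 on Ain76A, without overlap, with a difference of 1.31 ± 0.32 (SE), adjusted p = 0.00695, 2.48-fold higher. Muc2, Tff3, Fcgbp and Clca1 lay on the low side and were not called, with -0.70 for Muc2 (adjusted p = 0.0989), -0.55 for Tff3 (0.109), -0.54 for Fcgbp (0.18) and -0.48 for Clca1 (0.439). Zg16 was not called by any probe set, with 0.30 by 1434137_x_at, -0.04 by 1428358_at and -0.16 by 1428359_s_at. Spink4 had -0.99 (0.0857). NWD2 replicates 2 and 3 were the lowest, with 12.10 and 11.75 for Muc2, where replicates 1 and 4 had 13.21 and 13.05.

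Single arrays changed the count. Without NWD2 crypt replicate 1, 5 members were called, without replicate 2 only Muc3, and without replicate 3 none (Agr2 -1.05, adjusted p = 0.112, and Muc3 1.07, adjusted p = 0.0774). Without Ain76A crypt replicate 3 only Muc3 was called. The shares of all genes called in these fits are not given here, so the counts cannot be set against them. The tissue markers moved in the same comparison. Of 16 enterocyte genes 13 were higher in NWD2 crypts, with a list median of 1.50 against -0.07 for all genes, and of 19 cell cycle genes 6 were lower. The marker score was -4.24 to -2.01 in NWD2 crypts and -1.32 to -0.16 in Ain76A crypts (exact permutation test, two-sided, p = 0.0286, 0.0774 adjusted over 176 such tests). With that score as a covariate Agr2 had -0.14 and Muc3 0.21, both with an adjusted p of 1. The score did not overlap between the 2 diets and is built partly from genes of enterocytes, the cells that carry Muc3. That fit therefore cannot separate the score from the diet. With the spike-in level as the covariate both genes stayed called (adjusted p = 0.032 and 0.0153).

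**Figure D5:**
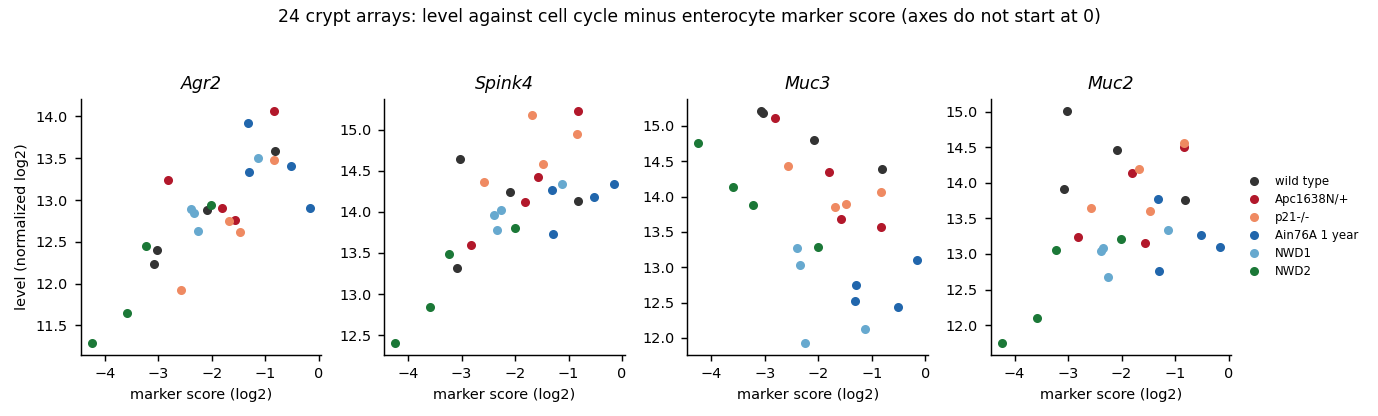
Normalized log2 level of Agr2, Spink4, Muc3 and Muc2 on each of the 24 crypt arrays against the marker score of the array (mean of 6 cell cycle genes minus mean of 16 enterocyte genes, log2); colours give the genotype or diet and no axis starts at 0. NWD2 arrays reach furthest left, to -4.24, where Agr2 and Spink4 are lowest, and within the dietary arm Muc3 is highest on that side.

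Other genes of the lists changed in NWD2 crypts. The meprins Mep1b (1.72 ± 0.28) and Mep1a (1.69 ± 0.43), brush border proteases of which meprin beta cuts Muc2 loose from the epithelium, were higher, as were Spink1 (1.42 ± 0.30), St3gal4 (1.26 ± 0.29) and Slc26a6 (1.06 ± 0.29). Galnt12 (-0.86 ± 0.28), Txndc5 (-0.82 ± 0.23), Foxa1 (-0.75 ± 0.24), Dnajc10 (-0.66 ± 0.22) and Clca3a2 (-1.42 ± 0.46) were lower. Mep1b is also 1 of the 16 enterocyte markers. In NWD2 villi none of 9 members was called (0.436% of all genes), with 932 genes at an unadjusted p under 0.05. The differences of Muc2, Tff3, Clca1 and Fcgbp from Ain76A villi were -0.58 (adjusted p = 0.446), -0.32, -0.53 and -0.32.

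Between NWD1 and Ain76A none of the 9 genes was called in crypts (0% of all genes) or in villi (0.0519%) by limma. There 274 and 402 genes had an unadjusted p under 0.05. By the probe set that stands for each gene, the largest differences were -0.43 for Agr2 in crypts (95% interval -1.11 to 0.26) and -0.64 for Muc3 in villi (-1.27 to -0.01). The second Clca1 probe set, 1459889_at, had -0.96 in villi (adjusted p = 0.959). In NWD1 villi Spink4 had 13.38, 13.42, 13.34 and 13.13, where Ain76A villi had 12.48, 11.74, 13.62 and 13.90. The 2 Paneth genes had 13.31 to 15.51 on the NWD1 villus arrays and 10.68 to 12.99 on those of Ain76A. Both diets were set against the same Ain76A arrays.

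Wild-type mice on Ain76A occur in both arms, at 3 months and at 1 year, and age and study arm cannot be told apart between them. In crypts 4 of the 9 genes were lower at 1 year (6.07% of all genes) and none was higher (7.43%). Muc3 had the largest difference, with 13.10, 12.75, 12.53 and 12.44 against 14.38, 15.18, 14.80 and 15.21, no overlap, and -2.19 ± 0.32 (SE), adjusted p = 3.75e-05, 4.57-fold. Zg16 had 14.85, 14.47, 15.00 and 14.31 against 14.92, 16.31, 16.11 and 15.83, with overlap by wild-type replicate 1 (-1.13 ± 0.22 SE, adjusted p = 0.00137). All 3 Zg16 probe sets were called, with -1.23 and -0.85 for the other two. Muc2 overlapped by Ain76A replicate 3, which lay just above wild-type replicate 1, and had -1.06 ± 0.28 (SE), adjusted p = 0.0118. Clca1 had -1.12 ± 0.39 (SE), adjusted p = 0.0469. The Muc2 call was lost without wild-type crypt replicate 2 (-0.82, adjusted p = 0.106) or without Ain76A crypt replicate 2 (-0.90, adjusted p = 0.0576). The Clca1 call was lost in 6 of 8 such fits (adjusted p up to 0.205). Wild-type replicates 2 and 4, chosen after seeing the data, were also left out together. Only Muc3 was then called, with -0.88 (adjusted p = 0.219) for Muc2, -1.02 (0.347) for Clca1 and -0.86 (0.128) for Zg16. These differences kept their sign, the fit had fewer arrays, and its share of all genes called is not given here.

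Fcgbp and Tff3 had -0.04 (95% interval -0.56 to 0.47) and -0.16 (-0.60 to 0.29). Muc13 had -0.49 (adjusted p = 0.0684), which was called without Ain76A crypt replicate 4 (-0.61, adjusted p = 0.0397). Atoh1 (1.02 ± 0.26), Txndc5 (1.78 ± 0.23), Sdf2l1 (1.18 ± 0.31), Clca3b (1.68 ± 0.57) and Clca3a2 (1.58 ± 0.46) were higher at 1 year, and Mep1a (-1.88 ± 0.43) and Spink1 (-1.06 ± 0.30) were lower. Enterocyte genes moved with the comparison, 8 of 16 lower at 1 year and none higher. Enteroendocrine genes were higher in 6 of 9 tested, with a list median of 1.25 and a mean level of 12.28 to 13.61 against 11.03 to 12.01, and cell cycle genes in 5 of 19, with none of either list lower. Their part was not tested beyond the covariate. With the marker score as a covariate Muc2, Zg16 and Muc3 stayed called, while Clca1 lost its call although its difference was larger (-1.37 ± 0.42, adjusted p = 0.0714). In villi none of 9 was called (17.1% of all genes), with 2282 genes at an unadjusted p under 0.05. Muc13 had 0.45 ± 0.18 (SE), adjusted p = 0.0854 there by its main probe set and 1.09 ± 0.30, adjusted p = 0.0107, by 1419386_at. On the deposited scale 4 members were called lower in 1-year villi, which were Zg16 (-1.30), Tff3 (-1.25), Muc3 (-0.96) and Fcgbp (-0.92). The normalized values gave -0.16, -0.32, -0.49 and -0.25 for these genes. The share of all genes called lower on the deposited scale is not given here. Spike-in means were 12.40 in 1-year villi and 13.63 in 3-month villi, and their part was not tested.

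How the members varied together is described here over shared arrays, with no test. Over the 12 group means, Pearson's r with Muc2 was 0.989 for Clca1, 0.976 for Tff3, 0.929 for Fcgbp and 0.913 for Zg16, over points that differ mostly by tissue. Muc3 had 0.844 and Muc13 0.741, Agr2 0.0519 and Spink4 -0.586. With each group's mean removed, over 47 arrays, r was 0.905 for Fcgbp, 0.861 for Tff3, 0.774 for Clca1 and 0.742 for Zg16. It was 0.482 for Agr2, 0.386 for Spink4, -0.159 for Muc3 and -0.205 for Muc13. Against the marker score, with group means removed, Agr2 had 0.633, Spink4 0.626 and Muc3 -0.648, while the other 6 lay between -0.184 and 0.267.

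Among 5222 genes measured on every array, the 5 outside the list with group means most like those of Muc2 were Bach1 (0.969), Cs and Ist1 (both 0.963), Golga4 (0.960) and Osbpl11 (0.958). Klf4 had 0.942. With group means removed they were Galnt12 (0.799), Krt18 (0.755), Tmsb10 (0.741), Kcnk6 (0.719) and Bcas1 (0.717), of which Galnt12, which starts O-glycan chains, and Bcas1 are also on the lists above. Arrays of 1 group share a tissue, a diet or genotype and the scaling, and these correlations carry that too.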

How the data were processed

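The log2 values were used as deposited, 1 per probe set and array; GCOS made them, per the submitters' processing notes, and its settings are not given in the sources used here. Of all values 55.2% were blank, for a reason not given, and were left out. Arrays were quantile-normalized over the 8404 probe sets measured on all 47. Probe sets above their array's median on at least 3 arrays were kept (14977), with 1 per gene, that measured on most arrays and then the highest mean. limma 3.58.1 in R 4.3.3 fitted the 12 groups together with a mean-variance trend, and p-values were adjusted by Benjamini-Hochberg over all genes with at least 3 measured arrays in each group compared. Intervals of 95% were built from the fit's standard error with the normal distribution, so they are slightly narrower than limma's moderated t-test implies. Where an interval end lies close to no difference, the p-value of the test decides. The fitting was tested on simulated data. The annotation gave 34958 probe sets 1 symbol, 932 several and 9211 none.

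The members and gene lists were chosen with earlier results of these data known. All 10 members are named, and of each other list up to 4 genes with the largest called difference in a comparison, plus Spdef, Atoh1, Gfi1, Klf4, Ern2, Muc1, Muc4 and Tff2 where measured. Replicate numbers paired the arrays of crypts and villi, by correlated deviations from the group means, for Ain76A (0.130 to 0.296) and NWD2 (0.288 to 0.495) only. Alternatives were the deposited scale, no filter, another probe set, filled blanks, only the groups compared, the replicate block and each array left out.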

Additional observations from a re-analysis of the deposited data

Results flagged for a closer look

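Within groups of 4 arrays, 3 of 99 sets of member values held an array that stood apart from the others by Dixon's criterion, which chance alone meets in about 1 in 20 sets. Clca1 was 14.31 in wild-type villus replicate 4, where the nearest of the others had 15.45. Fcgbp was 13.55 in Ain76A crypt replicate 2, where the nearest had 13.96. Muc13 was 14.38 in p21-/- crypt replicate 4, where the nearest had 13.82.

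A change of the crypt minus villus difference between conditions was called for 4 member results, by limma's test of that change. For Muc13 the p21-/- difference was more negative than the wild-type one by -0.99 (adjusted p = 0.0444). Of all genes 0.613% were called in that direction, and the Muc13 call was lost in 11 of 16 fits that left out 1 array. Between Ain76A at 1 year and wild type at 3 months the change was -0.97 for Zg16 (adjusted p = 0.0388), -0.93 for Muc13 (0.0173) and -1.70 for Muc3 (0.0139). Of all genes 5.85% were called in that direction. The Zg16 call was lost in 12 of 16 fits that left out 1 array, and its change was 0.20 on the deposited scale. Without wild-type crypt replicates 2 and 4, chosen after seeing the data, none of these Ain76A changes was called, in a fit with fewer arrays.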

How the results depend on the processing

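The count of members called in a comparison stayed within 1.5 times its main value in 325 combinations of comparison and alternative setting and moved further in 39. The shares of all genes called under the alternative settings are not given here, so these counts cannot be set against them. On the deposited scale without quantile normalization, 3 members were called between NWD2 crypts and villi, 4 between 1-year and 3-month villi, 0 for the p21-/- change of the tissue gap, 1 for that of NWD2 and 1 for that of Ain76A against wild type. With only the groups compared in the fit the counts were 5 for Apc1638N/+ crypts against villi, 0 for p21-/- crypts, 2 for 1-year crypts, 1 for 1-year villi, 0 for the p21-/- change of the tissue gap and 1 for that of NWD2. Without wild-type crypt replicates 2 and 4, chosen after seeing the data, they were 1 for 1-year crypts, 0 for the p21-/- change and 0 for the Ain76A change. With the marker score as a covariate, also added later, the counts were 0 for NWD2 crypts and 1 for 1-year villi, and with the spike-in level 0 for p21-/- crypts. The marker score did not overlap between NWD2 and Ain76A crypts, so the first of these fits cannot separate it from the diet. With the replicate number as a block, 1 member (Muc3) was called for the NWD2 change of the tissue gap, and no other count of calls on members moved by over 1.5 times.

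Leaving out 1 array at a time gave 0 to 2 members called for Apc1638N/+ crypts, 0 to 5 for NWD2 crypts, 2 to 4 for 1-year crypts, 0 to 1 for the p21-/- change of the tissue gap, 0 to 1 for that of NWD2 and 1 to 4 for that of Ain76A. Among values of single members, 980 kept direction and side of the threshold, 83 lost a call, 27 gained one and 4 changed sign. The sign changes were Spink4 in NWD2 crypts with the marker score (0.29), Zg16 in 1-year villi with the spike-in level (0.22) and by 1428358_at (0.046), and the Zg16 change of the tissue gap between Ain76A and wild type on the deposited scale (0.20). The cause was not tested. Precision is limited by 4 arrays a group, and blank values leave some genes, Retnlb among them, without a level.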

Other observations

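Genes around the members moved in villi between the 1-year Ain76A and the 3-month wild-type mice, where no member was called. Of 15 O-glycosylation genes tested 3 were higher at 1 year and 0 were lower, with a list median of 0.31 against 0.01 for all genes, of which 543 of 7236 were higher and 695 lower. B3gnt3, which extends O-glycan chains, had 1.79 ± 0.34 (SE), C1galt1c1 1.04 ± 0.26 and Galnt1 1.00 ± 0.29. Ern2, the endoplasmic reticulum stress sensor of mucus-secreting cells, was lower (-1.46 ± 0.45, limma adjusted p = 0.0211), while the folding factors Txndc5 (0.67 ± 0.23) and Calr (0.62 ± 0.18) were higher. The transglutaminase Tgm2 (1.40 ± 0.34), Mep1b (0.95 ± 0.28) and Clca3a1 (1.36 ± 0.34) were higher too. Lymphocyte markers moved in the same comparison, 10 of 10 lower at 1 year with a median of -2.63, and the spike-in level was 12.40 in 1-year villi against 13.63. Their part in these values was not tested.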
